A study of Homo sapiens with 12 samples.

Results

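Peptidylarginine deiminases convert arginine residues of proteins to citrulline, and 3 genes of this family, PADI2, PADI3 and PADI4, were followed through retinoic acid treatment of HL-60 cells. The members were the rows of the count files that carry these 3 symbols, and all 3 were found among 26364 genes. PADI4 and PADI2 had enough reads to be tested among 12671 genes, while PADI3 did not pass the filter on low counts. HL-60 is an established human promyelocytic leukemia line, and all libraries came from this line, without another genotype or host. The 12 bulk RNA-seq libraries form 4 groups of 3 replicates: cells before all-trans retinoic acid (ATRA, labelled RA 0h), and cells harvested at 4 h, at 2 d or at 4 d of 1 µM ATRA. Untreated cells of the later times were not analysed here, so time in culture and time in ATRA cannot be told apart. All comparisons against 0 h share the same 3 untreated libraries. The labels do not say whether replicates were separate cultures, so p-values measure only how these samples spread, which may be technical.

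The deiminases need calcium for activity, and removal of the positive charge of arginine alters how a protein folds and binds its partners. PADI4 carries a nuclear localization signal, is the deiminase best known in granulocytes and citrullinates histones, a step in the decondensation of chromatin when neutrophils release extracellular traps. PADI2 is the most widely expressed member and is known in myeloid cells, brain and muscle, whereas PADI3 is a protein of skin and hair follicles that acts on trichohyalin and filaggrin. The genes lie side by side in 1 cluster on chromosome 1 with PADI1, a deiminase of the epidermis, and PADI6, a deiminase of the oocyte.

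PADI2 and PADI4 differ in the sequence before their start. The 250 bases upstream of the annotated start are shown for the 2 members that changed, in the direction of the gene, from RefSeq on GRCh38.p14. Coordinates and letters are used only to describe the promoters, since the counts were made on hg19. Capitals mark GC boxes (GGGCGG) in PADI2, and in PADI4 a retinoic acid receptor half-site (AGGTCA, here on the opposite strand) and a TATA box (TATAAA).
PADI2, chr1:17119452-17119701, minus strand: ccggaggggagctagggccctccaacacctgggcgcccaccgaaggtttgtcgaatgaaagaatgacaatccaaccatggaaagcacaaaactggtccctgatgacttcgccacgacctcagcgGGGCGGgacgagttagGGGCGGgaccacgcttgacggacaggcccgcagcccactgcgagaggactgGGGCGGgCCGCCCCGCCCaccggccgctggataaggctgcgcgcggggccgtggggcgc
PADI4, chr1:17307947-17308196, plus strand: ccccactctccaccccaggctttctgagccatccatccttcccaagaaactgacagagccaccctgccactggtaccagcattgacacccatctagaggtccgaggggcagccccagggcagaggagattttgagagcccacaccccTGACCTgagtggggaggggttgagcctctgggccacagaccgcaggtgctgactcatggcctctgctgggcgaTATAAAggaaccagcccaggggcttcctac
The PADI2 stretch is 68.0% G and C with 24 CpG dinucleotides, more than in 76.3% of 35116 promoter stretches of this length. The PADI4 stretch is 61.2% G and C with 3 CpG dinucleotides, and 22.9% of the stretches have fewer.

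Motifs were searched on both strands. AGGTCA had 1 match in PADI4, 98 bases before the start, and 0 in PADI2, and 12.1% of all stretches held it. The other half-sites GGTTCA and AGTTCA (7.2% and 8.8% of stretches), the ETS core GAGGAA (23.6%) and the C/EBP motif TTGCNNAA (9.1%) had no match in either gene, which says only that these letters are not in this window. GGGCGG, in 42.6% of stretches, had 5 matches in PADI2 and 0 in PADI4, and TATAAA, in 10.7% of stretches, had 1 match in PADI4, 25 bases before the start. These last 2 motifs were added after the sequences were seen. The 2 GC boxes of PADI2 on the opposite strand, 47 and 42 bases before the start, overlap by their end base, and no other matches overlap. A match is a description of letters and not a measured binding site.

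Gene reads per library ran from 7866757 to 13658177. The cells carried the markers of granulocyte precursors, with MPO, the peroxidase of primary granules, at 28001 ± 7009 CPM at 0 h (CPM, reads per 1e6 gene reads of the library after TMM scaling, mean ± SD, n = 3 here and below). The summed level of 7 granulocyte precursor markers was 31320 to 44570 CPM over the 0 h libraries and 9277 to 10510 over those of 4 d. That of 14 late neutrophil markers was 2394 to 2958 at 0 h, 1277 to 1767 at 4 h and 5682 to 6973 at 4 d. Of the 12 tested late neutrophil markers, 6 were called higher at 4 d than at 0 h and 2 lower. Of all tested genes, 28.1% were called higher and 29.7% lower. FCGR3B and MMP9 were not called between 0 h and 4 d. FCGR3B was at 6.47 CPM at 0 h, 0.84 at 4 h and 7.63 at 4 d, and MMP9 at 2.58, 0.66 and 2.31. Among 12 monocyte and macrophage markers the sum went from 2220 to 4170 at 0 h to 858 to 1167 at 4 d, with MRC1 at 0 reads in all groups, and among 11 eosinophil, basophil and mast markers from 5355 to 7981 to 488 to 523. Lymphoid markers summed to 63.5 to 85.7 CPM at 0 h and 58.8 to 69.8 at 4 d, and erythroid and megakaryocyte markers to 17.8 to 31.3 and 5.40 to 6.84, with HBA1 and HBA2 at 0 reads in all groups. The part of a changed cell mix in the results below was not tested.

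Some libraries stand apart. In 4 h replicate 1, 22265 genes had reads, against 15198 to 15798 in the other 11 libraries. The slope of log2 expression on GC content, against the group mates, was 0.486 per 10 points in 0 h replicate 2, 0.362 in 4 h replicate 3 and 0.311 in 4 d replicate 1. In the other 9 libraries it was -0.351 to 0.0614. Results are given below also without these libraries where that changes a call.

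PADI4 was the most abundant of the 3 deiminase transcripts at every time, was lower at 4 h and then rose above its starting level. It stood at 79.3, 104.7 and 92.2 CPM in the 0 h replicates 1, 2 and 3. At 4 h it stood at 50.8, 51.7 and 67.2 CPM. All 4 h libraries lay below all 0 h libraries, with means of 92.1 ± 12.7 at 0 h and 56.6 ± 9.23 at 4 h. At 2 d the values were 147.1, 146.6 and 135.8 CPM, and at 4 d 276.1, 244.1 and 238.7. The 4 groups do not overlap anywhere in the order 4 h, 0 h, 2 d, 4 d, with means of 143.2 ± 6.38 at 2 d and 252.9 ± 20.2 at 4 d. In bulk RNA, fewer cells that express a gene and less RNA of it per cell cannot be told apart.

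The log2 fold change of PADI4 at 4 h was -0.70 ± 0.16 (SE), an edgeR adjusted p of 0.0219. Of all tested genes, 4.23% were called lower at 4 h and 2.00% higher. All 4 h libraries lay below all 0 h libraries for 12.5% of them. The call did not hold in every fit. It ended in a fit to the 6 libraries of the comparison alone (edgeR adjusted p = 0.107), without 0 h replicate 3 (edgeR adjusted p = 0.051), without 4 h replicate 1 (0.095) and without 4 h replicate 2 (0.125). PADI4 was the highest of its group in each of the 3 libraries with the steep positive GC slope, 0 h replicate 2, 4 h replicate 3 and 4 d replicate 1. With offsets for GC content and transcript length the change of PADI4 at 4 h was -0.48 (edgeR adjusted p = 0.006). Without those 3 libraries it was -0.74 (edgeR adjusted p = 0.000301). Dropping 4 h replicate 1 and keeping 4 h replicate 3 in that set gave -0.55 (edgeR adjusted p = 0.0463). The decline was called in each of these fits, in the last by a small margin. Late neutrophil markers moved beside it: 7 of 12 tested markers fell at 4 h and 0 rose, with 4 to 8 falling and 0 to 2 rising over the alternatives. Of the eosinophil, basophil and mast markers 4 of 9 tested fell and 0 rose, of the monocyte and macrophage markers 3 of 9 fell and 1 rose, and of the granulocyte precursor markers 0 of 7 were called. Of the lymphoid markers 1 of 5 fell, and 0 of 2 tested erythroid and megakaryocyte markers were called. The part of these marker changes in the PADI4 value was not tested.

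From 4 h onward PADI4 rose at each step. The change from 4 h to 2 d was 1.34 ± 0.16 on the log2 scale (edgeR adjusted p = 4.29e-05), where 16.5% of tested genes were called higher and 25.8% had all libraries above. From 2 d to 4 d it rose by 0.82 ± 0.16 (edgeR adjusted p = 0.00241), where these shares were 13.1% and 23.3%. Against 0 h, PADI4 was 0.64 ± 0.16 higher at 2 d (edgeR adjusted p = 0.0077) and 1.46 ± 0.16 higher at 4 d (edgeR adjusted p = 5.95e-06), a 2.75-fold difference. At 4 d its level exceeded that of 97.1% to 97.3% of the genes in the files, and at 4 h that of 84.6% to 87.2%.

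**Figure D1:**
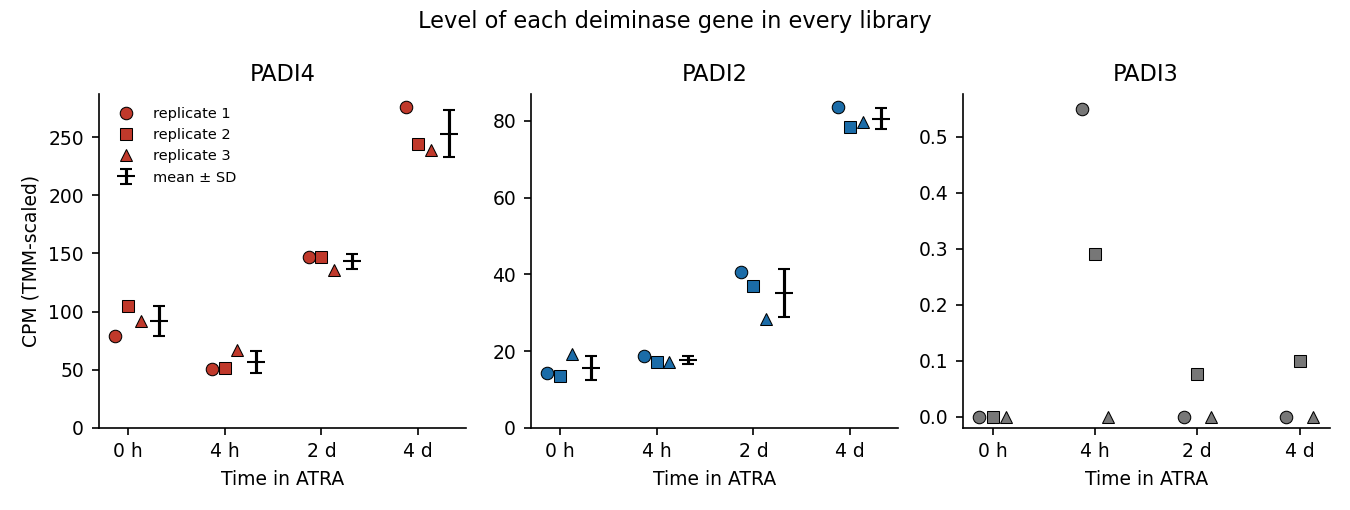
CPM of PADI4, PADI2 and PADI3 (linear vertical axes with a scale of their own per panel) against time in ATRA; each symbol is 1 library, and bars give mean ± SD for PADI4 and PADI2. PADI4 is lowest at 4 h and highest at 4 d, PADI2 is near 16 CPM until 4 h and near 80 CPM at 4 d, and PADI3 has at most 6 reads in any library.

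PADI2 had no called change at 4 h and rose from 2 d on. Its levels were 14.2, 13.5 and 19.3 CPM at 0 h, and 18.8, 17.1 and 17.0 CPM at 4 h. These groups overlap, and the log2 fold change of 0.17 ± 0.17 did not pass the test (edgeR adjusted p = 0.524). At 2 d PADI2 stood at 40.5, 36.8 and 28.3 CPM and at 4 d at 83.5, 78.4 and 79.6. Each of these groups lies above all libraries of the earlier times, and the 4 d libraries differ among themselves by a coefficient of variation of 3.33%, against 20.4% at 0 h, 5.54% at 4 h and 17.7% at 2 d. Group means were 15.6 ± 3.18, 17.6 ± 0.977, 35.2 ± 6.25 and 80.5 ± 2.68 CPM in order of time.

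The rise of PADI2 came in steps of similar size. It rose by 1.00 ± 0.17 on the log2 scale from 4 h to 2 d (edgeR adjusted p = 0.000562) and by 1.19 ± 0.17 from 2 d to 4 d (edgeR adjusted p = 0.000271). Against 0 h it rose by 1.17 ± 0.17 at 2 d (edgeR adjusted p = 0.000187) and by 2.36 ± 0.18 at 4 d (edgeR adjusted p = 1.6e-07), a 5.15-fold difference. Both tested members were called higher at 2 d, where 16.9% of all tested genes were called higher and 26.0% had all libraries above those of 0 h. Both were also called higher at 4 d, where the shares were 28.1% and 29.1%. By rank of log2 fold change at 4 d, PADI2 exceeded 95.0% and PADI4 88.2% of tested genes. An F-test over all times called both (edgeR adjusted p = 1.54e-07 for PADI2 and 6.53e-07 for PADI4), as it did 63.2% of tested genes.

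**Figure D2:**
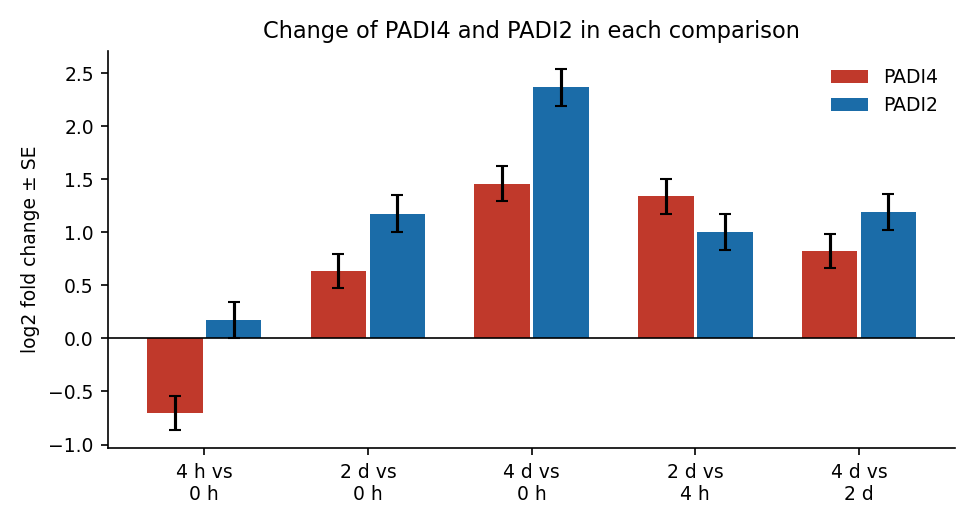
Log2 fold change of PADI4 and PADI2 (vertical axis, bars with SE from the fit to 12 libraries) in 5 comparisons of times. PADI4 has the only bar below 0, at 4 h against 0 h (-0.70), and PADI2 has the tallest bar, at 4 d against 0 h (2.36).

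The balance between the 2 transcripts changed over time. Within a library, PADI4 had 5.60, 7.78 and 4.78 times the reads of PADI2 at 0 h, and 2.71, 3.02 and 3.95 times at 4 h. At 2 d the ratios were 3.63, 3.98 and 4.80, and at 4 d 3.31, 3.11 and 2.998. All 0 h ratios lie above all ratios of 4 h and 4 d, while 2 d overlaps with 0 h and with 4 h. This ratio does not depend on depth or scaling. In order of time its log2 value was 2.56 ± 0.358, 1.67 ± 0.279, 2.04 ± 0.204 and 1.65 ± 0.0709, and it differed between times (F = 8.74, exact permutation test over 369600 arrangements of the libraries, p = 0.00455).

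Between pairs of times, the log2 ratio was 0.90 lower at 4 h and 0.92 lower at 4 d than at 0 h, each with p = 0.1 by a two-sided exact permutation test. That is the smallest value 3 against 3 libraries allow, and the adjusted value over 5 pairs is 0.167. The other pairs differed by -0.53 (2 d against 0 h, p = 0.2), 0.37 (2 d against 4 h, p = 0.2) and -0.39 (4 d against 2 d, p = 0.1) in the same exact permutation tests, with adjusted values of 0.2, 0.2 and 0.167. The ratio was already lower at 4 h, where PADI4 had fallen and PADI2 had not passed the test. When the 3 libraries with the steep positive GC slope were dropped, the exact permutation p over times was 0.0127. Dropping 4 h replicate 1 and keeping 4 h replicate 3 in that set gave 0.0429.

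**Figure D3:**
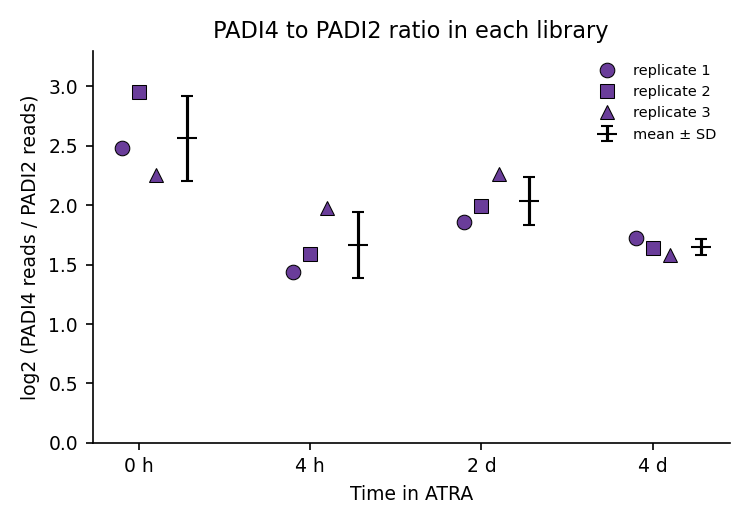
Log2 ratio of PADI4 reads to PADI2 reads (vertical axis) in each of the 12 libraries by time in ATRA, with mean ± SD per group. The 0 h libraries lie between 2.25 and 2.96 and the 4 d libraries between 1.58 and 1.72.

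Levels of different genes are compared here per kilobase of transcript, with lengths of 2267 bases for PADI4, 4345 for PADI2 and 3189 for PADI3 from GENCODE 29 (GRCh38). Per kilobase, PADI4 stood at 40.6 ± 5.60 CPM at 0 h and 111.6 ± 8.92 at 4 d, and PADI2 at 3.60 ± 0.733 and 18.5 ± 0.616. On this scale PADI4 exceeded PADI2 by 11.6 ± 2.96-fold, 6.17 ± 1.23-fold, 7.92 ± 1.14-fold and 6.01 ± 0.297-fold in order of time (mean ± SD of the libraries' ratios). The isoform in use was not measured, so these values rest on the longest coding transcript.

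PADI3 was barely detected. It had 0 reads in each 0 h library, which allows up to 0.0905 CPM over the group (3 reads over 33144092 gene reads, for counting error only). At 4 h it had 6, 4 and 0 reads in replicates 1, 2 and 3, at 2 d 0, 1 and 0, and at 4 d 0, 1 and 0. With these 12 reads in all it did not pass the filter. In 4 h replicate 1, which held 6 of them, reads also appeared in 57.9% of the 7358 genes that had 0 reads in the other 11 libraries, and 6 or more reads in 9.02% of them. In the other libraries the matching shares were 0.514% to 1.65%, and no such gene had 6 reads. In a fit without the filter the change at 4 h was 4.68 ± 2.43 (edgeR adjusted p = 0.276, a value that depends on the prior count). The remaining deiminases also had few reads. PADI1 had 10 reads in 4 h replicate 1 and 1 read in 2 d replicate 2, and PADI6 had 3 reads in 4 h replicate 1 and 1 read in 4 d replicate 2.

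At 4 d 28.1% of all tested genes were called higher, and none of the few other tested genes around PADI2 and PADI4 was. Of 13 listed genes at the cluster and on both flanks, 8 were tested. At 4 d against 0 h, PADI2 and PADI4 rose and SDHB, ARHGEF10L and ACTL8 fell, where 29.7% of all tested genes were called lower. The median was -0.11 over the 8 genes, PADI2 and PADI4 included, against 0.00014 over all tested genes. SDHB, a subunit of succinate dehydrogenase next to PADI2, fell from 80.4 ± 18.6 to 46.7 ± 5.25 CPM (-0.78 ± 0.18, edgeR adjusted p = 0.00179). RCC2, a regulator of chromosome condensation on the other side of the cluster, stood at 394.5 ± 20.7 and 322.5 ± 25.5 CPM (-0.29 ± 0.14, edgeR adjusted p = 0.0836), with the same sign and a call in 5 of 24 alternatives. ARHGEF10L fell from 10.4 ± 3.35 to 1.62 ± 0.710 CPM (-2.68 ± 0.34). ACTL8, an actin-like gene, fell from 3.17 ± 1.06 to 0.0637 ± 0.0558 CPM (-5.40 ± 0.66). It had 101 reads at 0 h and 2 reads at 4 d, so the size of its change is uncertain. ATP13A2, a lysosomal transport ATPase, and CROCC, a ciliary rootlet protein, were not called (0.07 ± 0.28 and 0.28 ± 0.37). PADI1, PADI3, PADI6, MFAP2 and IGSF21 had too few reads.

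**Figure D4:**
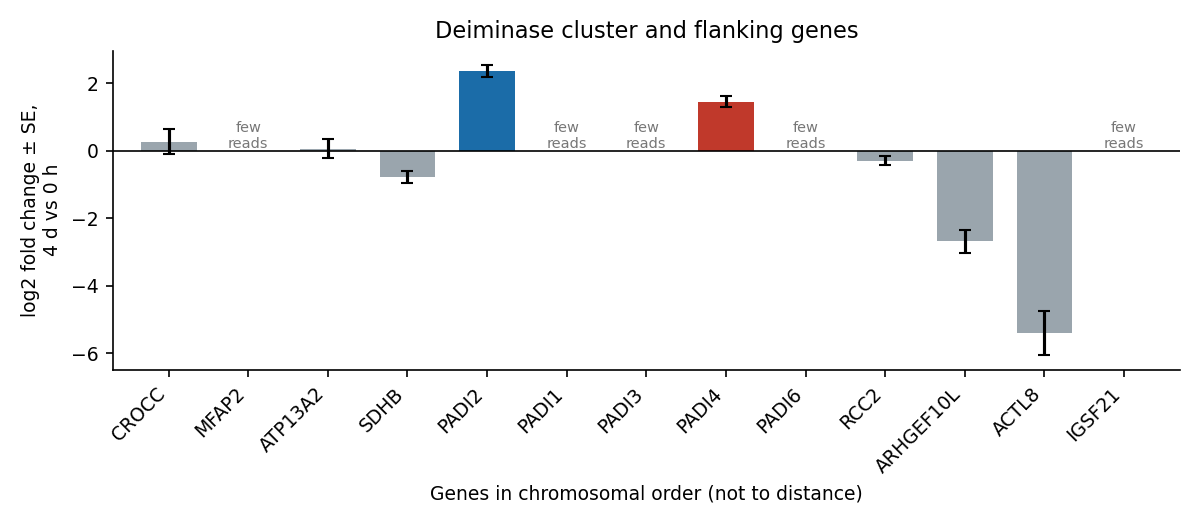
Log2 fold change at 4 d against 0 h (vertical axis, bars with SE) for genes in the order in which they lie on chromosome 1, not drawn to distance; genes marked "few reads" did not pass the filter. PADI2 (2.36) and PADI4 (1.46) stand above 0, with untested deiminase genes between them, and SDHB, ARHGEF10L and ACTL8 lie below 0.

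Other genes followed each member more closely than the members followed each other. Likeness was the Pearson correlation of log2 CPM over the 12 libraries, which share 4 times, among 8666 other genes whose mean was at least 10 CPM, and it is a description. The closest to PADI4 were RINL (0.993), KLHDC8B (0.993), IL10RA (0.993), RASGRP4 (0.993) and FOLR3 (0.992). They were chosen for this likeness, so a course like that of PADI4 follows from the choice. All 5 had a lower mean at 4 h than at 0 h and the highest at 4 d, for instance IL10RA, a receptor chain for interleukin-10, at 13.9, 6.39, 30.2 and 74.9 CPM in order of time, and RASGRP4, a Ras guanine nucleotide exchange factor, at 24.1, 8.30, 44.5 and 110.7. The closest to PADI2 were KIAA0513 (0.990), RAB11FIP4 (0.985), NDST2 (0.984), CSGALNACT1 (0.984) and ADGRE1 (0.982). Of these, ADGRE1, an adhesion receptor of myeloid cells, had means of 5.89, 5.72, 21.4 and 73.3 CPM. PADI2 and PADI4 correlated at 0.898 with each other, and 699 genes were closer to PADI4 than PADI2 was.

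Among 26 tested genes of extracellular trap formation, 9 rose and 11 fell at 4 d against 0 h, with a median of -0.23. ELANE, the elastase that acts with PADI4 on chromatin, fell from 2475 ± 1080 to 90.8 ± 18.0 CPM (-4.77 ± 0.36, edgeR adjusted p = 1.77e-07). The serine protease CTSG changed by -4.70 ± 0.22 (edgeR adjusted p = 3.47e-09). NCF1, a cytosolic subunit of the phagocyte oxidase with near-identical pseudogene copies that make its reads uncertain, rose by 3.82 ± 0.33 (edgeR adjusted p = 6.31e-07). These protease transcripts fell over the same days in which PADI4 rose.

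Calcium is the cofactor of the deiminases, and of 21 tested genes of calcium supply 11 rose and 6 fell at 4 d, with a median of 0.64. ITPR2, a calcium release channel of the endoplasmic reticulum, rose from 22.0 ± 4.80 to 265.6 ± 60.4 CPM (3.60 ± 0.28, edgeR adjusted p = 2.49e-07), and PLCB2, a phospholipase that makes its ligand, rose by 1.87 ± 0.34. CALR, a calcium-binding chaperone of the same compartment, changed by -2.80 ± 0.25.

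Of 20 tested genes for proteins described as deiminase substrates, 7 rose and 8 fell at 4 d, with a median of 0.19. DNMT3A, a DNA methyltransferase citrullinated by PADI4, rose from 15.0 ± 2.01 to 74.1 ± 3.60 CPM (2.31 ± 0.17). E2F1, a cell cycle factor, changed by -2.03 ± 0.25 and the chaperone HSP90AB1 by -1.83 ± 0.15. The substrates of PADI3 in skin, FLG and TCHH, stood at 0 ± 0 and 1.49 CPM at 0 h, and FLG did not pass the filter.

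Arginine methyltransferases modify the same residues, and with other enzymes of arginine and citrulline they form a list of 14 tested genes, of which 3 rose and 7 fell at 4 d (median -0.58). PRMT1, which makes most asymmetric dimethylarginine, fell from 407.9 ± 38.4 to 102.0 ± 10.9 CPM (-2.0 ± 0.19, edgeR adjusted p = 1.38e-06), and PRMT5 changed by -1.81 ± 0.24. ASS1, which uses free citrulline to make argininosuccinate, fell from 79.5 ± 6.48 to 1.23 ± 0.199 CPM (-6.01 ± 0.23, edgeR adjusted p = 6.97e-10). Of factors reported at PADI promoters, 4 of 10 tested rose and 2 fell (median 0.56). FOS, a subunit of AP-1, rose by 2.43 ± 0.18 and SP1, which binds GC boxes, by 1.09 ± 0.16. NFIX changed by -1.42 ± 0.18 and JUN, another subunit of AP-1, by -0.50 ± 0.17 (edgeR adjusted p = 0.0212). ESR1, the estrogen receptor, had 0 reads at 0 h, 2 d and 4 d and 8 reads at 4 h, and did not pass the filter. These counts lie against 28.1% of all tested genes called higher and 29.7% called lower at 4 d.

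**Figure D5:**
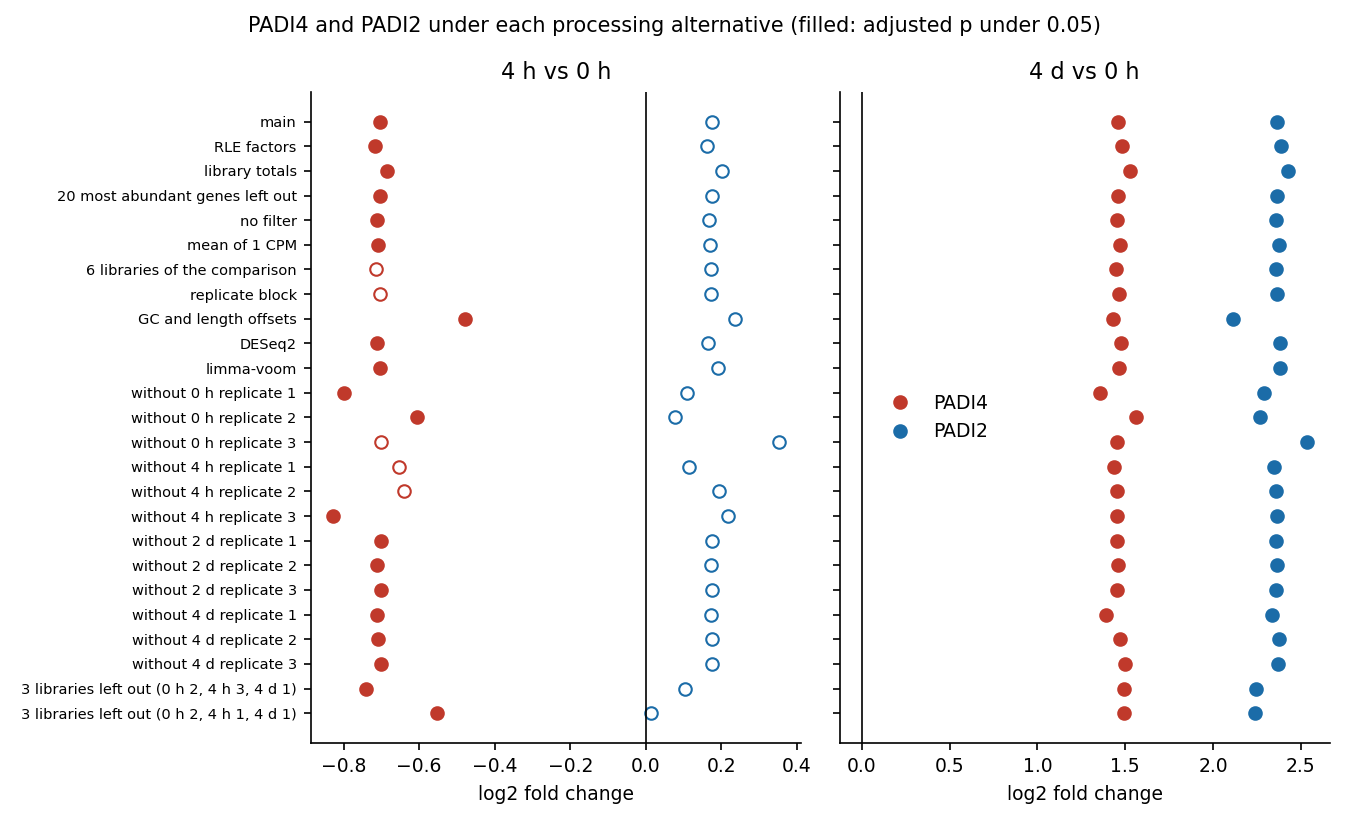
Log2 fold change (horizontal axes) of PADI4 and PADI2 at 4 h and at 4 d against 0 h under the reported fit and 24 alternatives (1 per line); filled points have an adjusted p under 0.05 and open points do not. At 4 d all points are filled, and at 4 h the PADI4 points lie between -0.83 and -0.48 with 5 of them open, while all PADI2 points are open.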

How the data were processed

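The authors deposited raw counts from HTSeq, 1 file per library. Its 5 classes of unassigned reads held 22.87% to 35.61% of a library and were left out. Per the submitters' processing notes, the tools were FastQC, Trim Galore 0.6.7, HISAT2 2.1.0 and HTSeq 1.99.2 with hg19; annotation, strand setting and kit were not given in the sources used here. Members, lists and tests were chosen with earlier results of these data known.

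The tests used edgeR 4.0.16 under R 4.3.3: filterByExpr, TMM scaling (0.8641 to 1.098) and a quasi-likelihood fit to all 12 libraries with 1 mean per time and 8 residual degrees of freedom. Calls used a Benjamini-Hochberg adjusted p under 0.05 over 12671 genes. The procedure was tested on simulated data. GC content and length came from GENCODE 29 (GRCh38) and matched 94.5% of tested genes by symbol. Chi-square per degree of freedom between replicates ran from 3.387 to 94.57, so no library was a copy of another. Named genes were up to 3 called genes per list with the largest change at 4 d at a mean of 10 CPM or more. Also named were all genes of the locus list and the 5 most correlated genes per member. The most abundant gene of a marker list was named as well. FCGR3B, MMP9, MRC1, HBA1, HBA2, FLG, TCHH, JUN, ESR1 and those of the closing observations were named after their values were seen. Alternatives were other scalings, DESeq2 1.42.0, limma-voom (limma 3.58.1), other filters, subsets of libraries, a replicate block and GC and length offsets.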

Additional observations from a re-analysis of the deposited data

How the results depend on the processing

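All fold changes of PADI2 and PADI4 kept their sign in 24 alternatives each, and 9 of 10 kept their side of the threshold in all of them. The exception was PADI4 at 4 h against 0 h, which was not called in the fit to the 6 libraries of the comparison (-0.71, edgeR adjusted p = 0.107) or with the replicate block (-0.70, edgeR adjusted p = 0.0729). Leaving out 1 library at a time gave -0.83 to -0.61, with the call lost for 3 libraries. The cause was not tested. Replicate numbers did not pair the samples: 6 of 18 same-numbered pairs had deviations correlated over 0.1, and 0 of 12 libraries were closest to their own number. The replicate block changed the count of called genes at 4 h from 790 to 381, and changed no other call of PADI2 or PADI4. The PADI4 to PADI2 ratio differed between times in 16 alternatives, 2 of them added after seeing the data (exact permutation p from 0.00175 to 0.0429). The alternative per transcript length scales every ratio alike, so it could not change this result. Of 27 other genes named at 4 d (JUN is not among them), the 24 called ones were called in every alternative. ATP13A2 and CROCC, not called in the reported fit, changed sign with GC and length offsets (-0.12 and -0.0205), and leaving out 1 library gave -0.16 to 0.40 for ATP13A2 and -0.29 to 0.60 for CROCC. Of the pathway counts given at 4 d, the fallen factors reported at PADI promoters (2) moved by over 1.5 times in some alternatives, with a range of 1 to 3, and for late neutrophil markers at 4 h the risen genes were 0 to 2. PADI3 did not pass the filter on low counts and has a value only in the fit without it.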

Other observations

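Within the list of extracellular trap genes, 6 genes not described above differed between 4 d and 0 h; they were chosen after their values were seen. RIPK3, a kinase of necroptosis, rose from 16.6 ± 3.66 to 72.0 ± 9.42 CPM (log2 fold change 2.12 ± 0.21, edgeR adjusted p = 2.29e-06), and its substrate MLKL rose from 38.8 ± 2.47 to 72.4 ± 12.9 CPM (0.90 ± 0.15, edgeR adjusted p = 0.000198). SERPINB1, an inhibitor of neutrophil serine proteases, rose by 0.85 ± 0.15 while the elastase gene fell. The cell cycle kinases CDK4 and CDK6 changed by -2.05 ± 0.17 and -2.13 ± 0.26, and PPIF, a regulator of the mitochondrial permeability pore, by -0.72 ± 0.16.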
